A study of Mus musculus with 4 samples.

Results

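Dividing microglia of the mouse cortex were taken as barcodes that met 4 bounds on raw counts of unique molecular identifiers (UMIs, which count captured RNA molecules). At least 0.15% of a cell's UMIs came from P2ry12, a purinergic receptor of microglia, less than 1% came from Apoe, at most 2 UMIs came from the border macrophage genes Lyve1, F13a1, Cd163 and Cbr2, and at least 3 UMIs came from 8 genes of the cell cycle (Mki67, Top2a, Cenpf, Birc5, Ube2c, Ccnb2, Pclaf and Rrm2). The first 3 bounds defined gated microglia and the last set dividing cells apart from the other gated microglia. The rule held for 280 of 61686 deposited barcodes, which is 0.456% of the 61371 barcodes that passed the filters on depth and mitochondrial RNA, and 0.763% of 36713 gated microglia. There were 61 and 38 such cells in the Hevin libraries and 114 and 67 in the mCherry libraries. Since measured counts chose the cells, the levels of the cycle genes, of the gate genes and of any other gene in dividing against other gated microglia are given as descriptions, with no test.

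The study compared CD11b-positive cells of the cortex at postnatal day 15 after astrocytes had been made to overexpress a protein from shortly after birth. In the Hevin group, wild-type mice had received an adeno-associated virus for Hevin, a secreted synapse-promoting protein that Sparcl1 encodes, injected into the cortex on postnatal day 0 or 1. The mCherry group, also wild type and treated at the same ages, had received a virus for the membrane-anchored fluorescent protein mCherry-CAAX. Expression of either transgene was under GfaABC1D, which is active in astrocytes, so neither was aimed at the microglia themselves. All mice were perfused with, and all cortices dissociated in, actinomycin D and triptolide, which block transcription, with anisomycin, which blocks translation, added from dissection on, and CD11b-positive cells were then collected with beads. Their RNA was counted with PIPseq in 2 libraries per group. The number of animals behind each library is not stated, so p-values measure only the spread between these libraries, which may be technical.

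Microglia are the resident macrophages of the brain parenchyma, and in the first weeks of life they multiply by division within the tissue. A dividing cell first makes nucleotides and copies its DNA in S phase, with the MCM helicase and the sliding clamp PCNA at the fork, and packs the new DNA on freshly made histones. It then builds a spindle, attaches chromosomes to it at kinetochores, and separates them under the control of cyclin B, CDK1, Polo and Aurora kinases before the cell itself splits. Many genes of the late steps carry a CCAAT box and a cell cycle homology region (CHR) upstream of the start, through which the DREAM complex keeps them off in resting cells, and many of the early genes carry sites for E2F.

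The 200 bases before the start of 5 genes are shown as examples. Ube2c, Top2a and Mki67 are late genes used by the rule, Mcm6 is a replication gene and P2ry12 is the gene of the gate. The 5 windows do not represent the motif content of their lists, which is given below. The windows come from RefSeq, build GRCm38.p6, first listed start of each gene, and run 5′ to 3′ on the gene's own strand. Ube2c lies at chr2:164769729-164769928 (plus strand), Top2a at chr11:99024190-99024389 (minus), Mki67 at chr7:135716380-135716579 (minus), Mcm6 at chr1:128359706-128359905 (minus) and P2ry12 at chr3:59262986-59263185 (minus). Capitals mark CCAAT, the CHR letters TTTGAA, and the E2F letters TTTCCCGC, TTTCGCGC, TTTGGCGC and TTTGCCGC, each on either strand. In Ube2c the first capitals are a CCAAT and its reverse, which overlap, and in Mcm6 an E2F match on each strand overlaps the other.
Ube2c: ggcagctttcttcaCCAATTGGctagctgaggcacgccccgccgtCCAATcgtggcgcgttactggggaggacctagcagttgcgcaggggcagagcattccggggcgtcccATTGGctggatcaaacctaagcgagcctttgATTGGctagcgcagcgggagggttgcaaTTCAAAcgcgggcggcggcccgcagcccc
Top2a: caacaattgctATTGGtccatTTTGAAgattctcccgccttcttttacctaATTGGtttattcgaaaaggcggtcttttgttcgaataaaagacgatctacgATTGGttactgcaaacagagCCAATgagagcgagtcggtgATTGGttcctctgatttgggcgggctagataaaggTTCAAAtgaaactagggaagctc
Mki67: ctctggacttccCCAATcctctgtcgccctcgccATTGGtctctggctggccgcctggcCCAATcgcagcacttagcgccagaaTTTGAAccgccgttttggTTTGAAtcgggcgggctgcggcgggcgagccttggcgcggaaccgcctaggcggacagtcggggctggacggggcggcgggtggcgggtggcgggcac
Mcm6: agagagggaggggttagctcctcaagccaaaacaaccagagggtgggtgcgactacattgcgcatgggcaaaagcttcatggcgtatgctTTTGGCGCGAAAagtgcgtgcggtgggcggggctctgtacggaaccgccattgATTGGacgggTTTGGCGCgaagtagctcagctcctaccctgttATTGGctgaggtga
P2ry12: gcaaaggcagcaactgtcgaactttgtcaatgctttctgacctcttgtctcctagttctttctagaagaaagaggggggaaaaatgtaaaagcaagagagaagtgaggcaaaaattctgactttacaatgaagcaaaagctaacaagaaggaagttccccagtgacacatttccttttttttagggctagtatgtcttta

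The same letters were searched in the 250 bases before the start of 27025 genes, of which 34.5% held CCAAT, 16.3% held the CHR letters, 5.73% held both and 1.91% held an E2F match. Of the 8 cycle genes of the rule, 7 held CCAAT, 4 held CCAAT with CHR, and 0 held an E2F match. The 4 with both were Ube2c, Top2a and Mki67, shown above, and Ccnb2. Promoter windows were matched for 48 of the 56 genes of the mitotic kinase, spindle and kinetochore lists. Of these, 33 held CCAAT (68.8%), 12 held CHR (25%), 10 held both (20.8%) and 3 held E2F letters (6.25%). Among the 32 matched genes of the replication and nucleotide synthesis lists (of 37), 18 held CCAAT (56.2%) and 6 held CHR (18.8%). Both were held by 4 (12.5%), and 7 held E2F letters (21.9%). Of 16 matched homeostatic microglia genes (of 24), 8 held CCAAT, 1 held CHR, 1 held both and 1 held E2F letters. A match is a run of letters in this window and says nothing of binding.

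The libraries differed before any comparison of dividing cells. The Hevin libraries held 55629684 and 52707417 UMIs in 19855 and 13077 barcodes, and the mCherry libraries 67832685 and 49781430 UMIs in 17877 and 10877 barcodes. Gated microglia made up 33.2% and 43.9% of kept barcodes in the Hevin libraries, against 85.2% and 85.5% in the mCherry libraries. Cells with 1% or more of their UMIs from Apoe, border macrophages aside, made up 10360 of 19653 and 5657 of 13036 kept barcodes in the Hevin libraries, against 163 of 17833 and 81 of 10849 in the mCherry libraries. The Xist level in the dividing cells was 5.19 and 2114 CPM (a gene's UMIs scaled to the same total in every library) in the Hevin libraries and 790.2 and 1603 CPM in the mCherry libraries, so Hevin replicate 1 held next to no Xist and its Ddx3y, at 156 CPM, was above the 11.3, 70.0 and 39.0 CPM of the other 3 libraries. Across libraries 21 barcodes were shared, none of them a dividing cell. Sparcl1, which the Hevin virus carries, gave 10 and 1 UMIs in the dividing cells of the Hevin libraries and 18 and 10 in those of the mCherry libraries, which checks nothing, as the virus was made for astrocytes.

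The dividing cells also held microglial markers that the rule did not use. The dividing cells held 1348 and 1270 CPM of Tmem119, a surface protein of mature microglia, in the Hevin libraries and 1649 and 1546 CPM in the mCherry libraries. Sall1, a transcription factor of microglia, gave 176 and 187 CPM with Hevin and 253 and 242 CPM with mCherry. Of the 280 cells, 4 carried RNA of another cell type, all in the mCherry libraries. The first had 38 UMIs of a mural and fibroblast list and 15 of an endothelial list. A pair of cells had 179 and 315 UMIs of MHC class II genes and Cd74, and the last had 4303 UMIs of a neutrophil list. The border macrophage list, 4 of whose genes the rule bounds, summed to 716 and 334 CPM in dividing cells of the Hevin libraries and 439.98 and 312 CPM in those of the mCherry libraries, beside 681, 424, 374 and 263 CPM in the other gated microglia of the same libraries. The erythroid list had 0 UMIs in dividing cells of both Hevin libraries, against 187 and 16 UMIs in those of the mCherry libraries.

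The rule's threshold fell among cells with few counts. Dividing cells held a median of 7 and 12.5 UMIs of the 8 cycle genes in the Hevin libraries and of 15 and 13 in the mCherry libraries, and the highest held 65. Just inside the bound, 12 and 3 cells in the Hevin libraries and 9 and 6 in the mCherry libraries had exactly 3 UMIs. Just outside it, 32 and 25 cells in the Hevin libraries and 58 and 27 in the mCherry libraries had 2. Cells with 3 held medians of 4.5 and 7 UMIs in the Hevin libraries, against 3 and 5 in the mCherry libraries, over 52 further S-phase and G2/M genes that the rule did not use. Cells with 2 held medians of 3 and 2 UMIs in the Hevin libraries and of 2 and 2 in the mCherry libraries. A median of 1 UMI was found in each library for cells with none of the 8 genes. Of the 280 cells, 172 had UMIs of 5 or more of the 8 genes and 38 had UMIs of only 1 or 2 of them.

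Dividing cells were deeper than the others. Their median total was 2442 and 4316 UMIs in the Hevin libraries and 4607 and 5069 UMIs in the mCherry libraries, which was 1.19, 1.31, 1.41 and 1.28 times that of the other gated microglia in the same 4 libraries. A bound in raw UMIs favours deep cells. The bound was also set as 0.1% of a cell's UMIs in place of 3 UMIs. The ratios, here to the median of all gated microglia, were 0.984, 1.27, 1.46 and 1.30 in the same order. The greater depth was thus seen with that rule in 3 of 4 libraries and not in Hevin replicate 1.

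Mki67, which encodes a protein that coats mitotic chromosomes, gave a UMI in 52.5% and 63.2% of dividing cells in the Hevin libraries and 69.3% and 65.7% in the mCherry libraries. In the other gated microglia it gave a UMI in 0.541% and 0.528% of cells in the Hevin libraries and 0.438% and 0.326% in the mCherry libraries. Top2a, the topoisomerase that untangles copied DNA, reached the most dividing cells of the 8 genes in every library, at 73.8% and 84.2% in the Hevin libraries and 82.5% and 76.1% in the mCherry libraries. Rrm2, the S-phase subunit of ribonucleotide reductase, was found in the fewest in 3 of the libraries, at 26.2% and 65.8% of cells in the Hevin libraries and 43.9% and 43.3% in the mCherry libraries. Hevin replicate 1 had the lowest share of cells with Rrm2 and with Mki67, and it was also the shallowest. By level in dividing cells, Rrm2 was again lowest there, at 140 CPM. Mki67 was lowest in Hevin replicate 2, at 278 CPM against 347 CPM in Hevin replicate 1.

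The dividing share did not separate the groups. Dividing cells made up 0.934% (95% Wilson interval 0.728 to 1.20) and 0.664% (0.484 to 0.910) of gated microglia in the Hevin libraries and 0.751% (0.625 to 0.901) and 0.722% (0.569 to 0.916) in the mCherry libraries. The means were 0.799% ± 0.191 with Hevin and 0.736% ± 0.0200 with mCherry (SD, n = 2 each; exact two-sided permutation p = 1). The 2 Hevin libraries lay on either side of both mCherry libraries. With 2 libraries per group the smallest p that this test can give is 0.333, so it cannot pass 0.05, and the intervals cover counting error only.

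The 8 cycle genes summed to 71.0 and 43.6 CPM over all gated microglia of the Hevin libraries and to 51.7 and 39.9 CPM over those of the mCherry libraries (exact two-sided permutation p = 0.667). After each gated cell had been thinned to 1000 UMIs, which left out 107 shallower cells, all of Hevin replicate 1, the share with at least 3 UMIs of the 8 genes was 0.529% and 0.385% in the Hevin libraries and 0.382% and 0.323% in the mCherry libraries. The thinned groups did not overlap, by a margin between Hevin replicate 2 and mCherry replicate 1 of 22 of 5720 against 58 of 15188 cells, and the exact permutation p was the smallest it can be, 0.333. At other cuts the thinned groups overlapped: cells with at least 2 UMIs made up 0.810% and 0.507% in the Hevin libraries and 0.573% and 0.474% in the mCherry libraries. The share with at least 1 was 3.55% and 2.15% in the Hevin libraries and 2.49% and 1.96% in the mCherry libraries. Hevin replicate 1 was the highest by each of these measures.

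**Figure D1:**
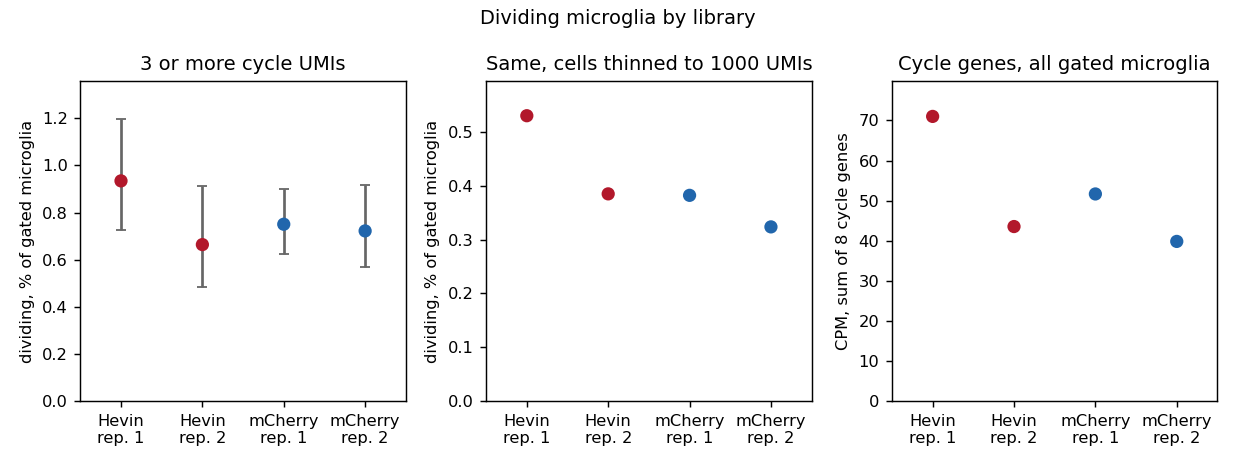
Dividing cells in each library, Hevin left of mCherry: their share of gated microglia with 95% Wilson intervals (left), the share after thinning each cell to 1000 UMIs (middle) and the summed CPM of the 8 cycle genes over all gated microglia (right). Hevin replicate 1 is highest in each panel at 0.934%, 0.529% and 71.0 CPM.

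Other dividing cells lay outside the Apoe bound. Among kept barcodes with 1% or more of UMIs from Apoe, outside the border macrophages, 126 of 10360 (1.22%) and 101 of 5657 (1.79%) passed the cycle bound in the Hevin libraries, against 0 of 163 and 1 of 81 in the mCherry libraries. Of these, 13 and 10 cells in the Hevin libraries and 0 and 1 in the mCherry libraries also met the P2ry12 bound and are thus left out of the dividing microglia by Apoe alone. With no bound on Apoe the dividing share was 0.816% and 0.675% in the Hevin libraries and 0.746% and 0.729% in the mCherry libraries.

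The dividing cells differed in their balance of S-phase and G2/M RNA, and many held both. Each cell was called S-leading or G2/M-leading by which of 2 lists of 26 genes, none of them among the 8 cycle genes, gave more UMIs. S-leading cells numbered 15 and 12 in the Hevin libraries (24.6% and 31.6%) and 27 and 23 in the mCherry libraries (23.7% and 34.3%). G2/M-leading cells numbered 44 and 25 in the Hevin libraries and 82 and 44 in the mCherry libraries. The lists tied in the remaining 8 cells. Over all libraries, S-leading cells held a median of 27 UMIs of the S-phase list beside 9 of the G2/M list, and G2/M-leading cells a median of 23 of the G2/M list beside 4 of the S-phase list. The S-leading share averaged 28.1% ± 4.94 with Hevin and 29.0% ± 7.53 with mCherry (SD, n = 2 each; exact two-sided permutation p = 1), so the groups differed by less than their libraries did. Of the 280 cells, 24 lay within 1 UMI of the divide, so the calls are ranges along the cycle and not cell types. With each cell thinned to 1000 UMIs the S-leading share was 21.3% and 34.2% in the Hevin libraries and 23.7% and 32.8% in the mCherry libraries.

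**Figure D2:**
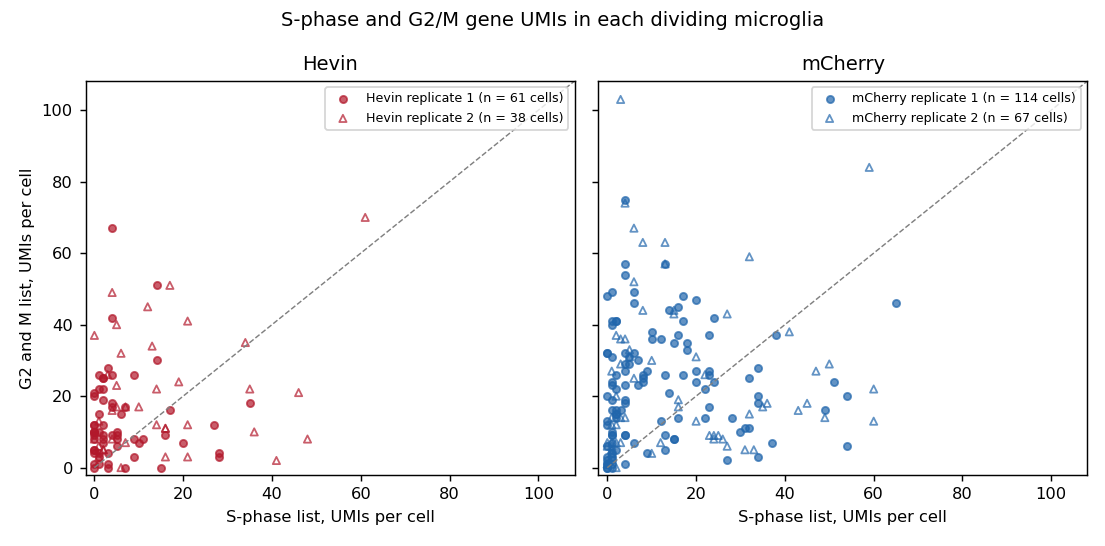
UMIs of the S-phase list (x axis) and of the G2 and M list (y axis) in each of the 280 dividing cells, Hevin left and mCherry right, with filled circles for replicate 1 and open triangles for replicate 2. Of the 280 cells, 195 lie above the dashed line of equal counts, and many cells hold UMIs of both lists.

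The 8 genes of the rule were spread over that divide. In library order (Hevin replicates 1 and 2, then mCherry replicates 1 and 2), Ube2c, an enzyme that helps mark mitotic cyclins for destruction, stood at 189, 114, 95.5 and 87.2 CPM in S-leading cells and 831, 494, 565 and 643 CPM in G2/M-leading cells. Cenpf, a kinetochore protein, stood at 105, 75.9, 129.6 and 111 CPM in S-leading cells and 571, 354, 493 and 429.9 CPM in G2/M-leading cells. These late genes were higher in G2/M-leading cells in each of the 4 libraries.

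The early genes went the other way. Rrm2 stood at 209, 341, 429.8 and 357 CPM in S-leading cells and 119.7, 346, 169.6 and 128 CPM in G2/M-leading cells, higher in S-leading cells in 3 libraries and about level in Hevin replicate 2. Mcm6, whose upstream window is shown above and which is itself on the S-phase list, stood at 126, 189.6, 109 and 159 CPM in S-leading cells and 0, 16.5, 12.9 and 19.4 CPM in G2/M-leading cells. Ccne1, the cyclin E that opens S phase and is on neither list, stood at 126, 0, 95.5 and 135 CPM in S-leading cells and 7.04, 57.6, 5.14 and 0 CPM in G2/M-leading cells, from 47 UMIs in all, and Hevin replicate 2 went against the other 3 libraries. P2ry12, which the gate bounds, was higher in S-leading cells in every library, at 3457, 3262, 4298 and 3902 CPM in S-leading cells and 2740.0, 2749.6, 3275 and 2916 CPM in G2/M-leading cells.

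Against the other gated microglia, dividing cells were marked by the machinery of S phase and mitosis, as the rule requires, and by lower levels of microglial identity genes. The comparison took CPM within each library, and a log2 ratio was formed after adding 5 CPM to each value. Of 3480 genes outside the rule that reached 50 CPM in the higher class of every library, 873 were higher in dividing cells in all 4 libraries and 1080 were lower in all 4. The median log2 ratio over these genes was -0.07. There were 247 genes with a mean log2 ratio of 1 or more and higher in all 4 libraries, and 39 with a mean of -1 or less and lower in all 4.

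The largest ratios belonged to histones and to spindle and chromosome passenger genes. H2ac24, a core histone gene of a family whose near-identical copies can share reads, stood in library order at 607, 618, 636 and 505 CPM in dividing cells, against 8.87, 5.77, 5.27 and 4.59 CPM in the other gated microglia. Its log2 ratio averaged 5.75 ± 0.22 (SD over 4 libraries). All 12 clustered or linker histone genes that reached 50 CPM were higher in all 4 libraries, and reads of such copies cannot be told apart with certainty. Cdca3, which helps mitosis begin, and Cdca8 and Pbk, a passenger protein of the centromere and a mitotic kinase, averaged log2 ratios of 5.47 ± 0.21, 5.43 ± 0.33 and 5.35 ± 0.34. The other genes among the 15 largest were H2ac23, Lockd, Ckap2l, Tk1, Prc1, Hmmr, Cdc20, Spc24, Pimreg, Cenpe and Ccna2, with means between 4.82 and 5.73.

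The genes of nucleotide supply and of replication had smaller ratios than those of mitosis. Of the rule's 8 cycle genes, 6 belong to G2 and M, and 195 of the 280 cells were G2/M-leading. The part of the rule in this order was not tested. All 6 measured nucleotide synthesis genes and all 5 replication genes were higher in all 4 libraries, with median log2 ratios of 2.98 and 2.74. Tk1, the thymidine kinase of S phase, was at 228, 357, 282 and 309.7 CPM in dividing cells, against 5.54, 3.18, 3.59 and 2.94 CPM in the other gated microglia. Pcna, the sliding clamp, was at 425, 663, 485 and 557 CPM in dividing cells, against 92.7, 85.9, 85.7 and 88.5 CPM in the other gated microglia, a log2 ratio of 2.51 ± 0.31. Pcna RNA was thus measurable in every library outside the dividing cells, where Tk1 was far lower.

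Mitotic genes were low in the other gated microglia. All 11 mitotic kinases and cyclins, all 20 spindle and cytokinesis genes and all 10 kinetochore genes with enough counts were higher in all 4 libraries, with median log2 ratios of 4.01, 4.23 and 4.33. Cdk1, the kinase that drives entry into mitosis, stood at 269.7, 357, 395 and 388 CPM in dividing cells, against 15.4, 14.5, 14.4 and 13 CPM in the other gated microglia. Prc1, which bundles the midzone of the spindle, stood at 311, 283, 312 and 333 CPM in dividing cells, against 4.67, 4.89, 4.57 and 4.49 CPM in the other gated microglia, with a log2 ratio of 5.03 ± 0.12. Its spread over the libraries was small against its size.

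Several RNAs that marked division were abundant and encoded chromatin or microtubule proteins. H2az1, a histone variant, stood at 2386, 2828, 2799.7 and 2542 CPM in dividing cells, against 387, 373, 399 and 379 CPM in the other gated microglia. Hmgb2, a chromatin protein, stood at 2355, 2256, 2401 and 2095 CPM in dividing cells, against 125, 106, 107 and 92.7 CPM in the other gated microglia, a log2 ratio of 4.34 ± 0.11. Stmn1, which loosens microtubules, stood at 1333, 1366, 1352 and 1332 CPM in dividing cells, against 60.2, 57.6, 61.4 and 51.4 CPM in the other gated microglia, with a log2 ratio of 4.43 ± 0.10.

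Inhibitors and starters of the cycle were mixed. Of 10 measured cycle inhibitors, 5 were higher in all 4 libraries (Cdkn1a, Cdkn2a, Cdkn2c, Cdkn2d and Rbl1), 2 were lower (Btg1 and Trp53) and 3 were mixed. Cdkn1a, the p21 inhibitor of cyclin-dependent kinases, stood at 451, 255, 389.7 and 349 CPM in dividing cells, against 41.4, 29.8, 34.5 and 27.2 CPM in the other gated microglia. Cdkn2c, the p18 inhibitor of CDK4 and CDK6, stood at 166, 204, 149 and 114 CPM in dividing cells, against 12.5, 9.74, 10.1 and 9.84 CPM in the other gated microglia. Among 6 measured G1/S regulators, Ccna2, Ccne2 and Cdk4 were higher and Ccnd1, Ccnd3 and Cdk6 were lower in all 4 libraries. Ccnd3, a D-type cyclin of G1, stood at 223, 261, 149 and 213 CPM in dividing cells, against 334, 423, 317 and 419 CPM in the other gated microglia, a log2 ratio of -0.82 ± 0.23.

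**Figure D3:**
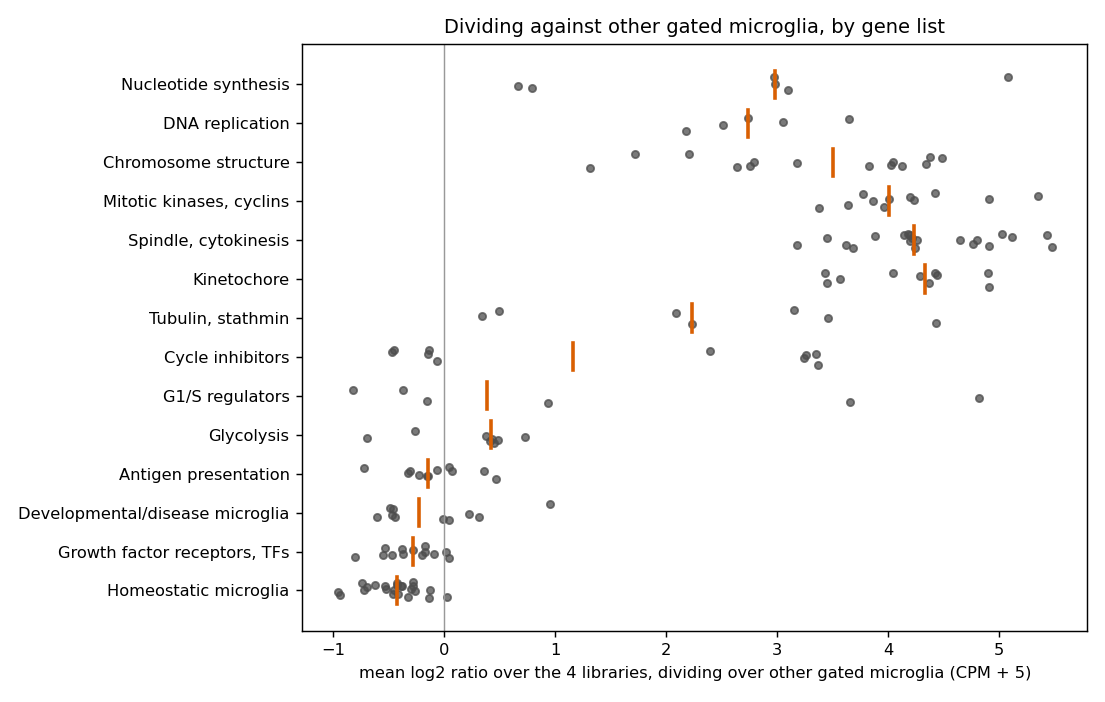
Mean log2 ratio over the 4 libraries of dividing over other gated microglia (x axis, 5 CPM added to each value) for genes that reached 50 CPM, by gene list; each point is a gene and each bar is the median of its list. Mitotic, spindle and kinetochore genes centre between 4.01 and 4.33, and homeostatic microglia genes centre at -0.42.

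Homeostatic microglia genes were lower in dividing cells. Of 23 measured, 21 were lower in all 4 libraries and 2 (Olfml3 and Golm1) were mixed, with a median log2 ratio of -0.42. Over all 3480 genes, 1080 were lower in all 4 libraries and the median was -0.07. Adgrg1, an adhesion receptor, stood at 223, 198, 289 and 286 CPM in dividing cells, against 372, 469, 538 and 575 CPM in the other gated microglia, a log2 ratio of -0.96 ± 0.21. Siglech, a sialic acid receptor, stood at 1354, 1258, 1322 and 1366 CPM in dividing cells, against 1753, 1909, 1975 and 2004 CPM in the other gated microglia. Tmem119 differed less, with a log2 ratio of -0.29 ± 0.12. P2ry12 itself averaged -0.67 ± 0.09, but its level was bounded from below by the gate in both classes.

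Regulators of microglial growth and fate were lower or level. Of 13 genes on the list of growth factor receptors and transcription factors, 8 were lower in all 4 libraries and 5 were mixed. For comparison, 1080 of all 3480 genes were lower in all 4 libraries. Csf1r, the receptor on which microglia depend, had a log2 ratio of -0.38 ± 0.11, and Spi1, which encodes the macrophage factor PU.1, averaged -0.17 ± 0.13. Since shares of a total were compared, a gene whose RNA per cell did not differ would also be lower where other RNAs are more abundant.

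Genes outside the cycle lists were also among the 873 that were higher in all 4 libraries. Lpl, a lipoprotein lipase, stood at 88.2, 90.7, 101 and 104 CPM in dividing cells, against 41.2, 46.5, 49.2 and 51 CPM in the other gated microglia. Its log2 ratio was 0.96 ± 0.05. Lpl is on the list of developmental and disease microglia genes. Of 10 measured genes of that list, 2 were higher in all 4 libraries, 5 were lower and 3 were mixed, with a median log2 ratio of -0.22. Ifi27l2a, an interferon-response gene, had a log2 ratio of 1.95 ± 0.49. Of the 2 measured genes of the interferon list, the other was mixed, at -0.02. Of 8 measured glycolysis genes, 5 were higher in all 4 libraries, Gapdh among them with a log2 ratio of 0.73 ± 0.12, whereas Hk2, a hexokinase, was lower at -0.70 ± 0.23. Of 87 ribosomal protein genes, 57 were lower in all 4 libraries and 6 were higher, with a median log2 ratio of -0.17. Over all 3480 genes, 1080 were lower and 873 were higher in all 4 libraries, with a median of -0.07.

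The smallest ratios were of modest size. Sult1a1, a sulfotransferase, stood at 10.4, 22.7, 39.5 and 31.2 CPM in dividing cells, against 84.5, 91, 81.1 and 85.4 CPM in the other gated microglia. Nav3, a microtubule-binding protein of microglia, stood at 109, 227, 354 and 294 CPM in dividing cells, against 387, 534, 634 and 736 CPM in the other gated microglia, a log2 ratio of -1.29 ± 0.39. Slc1a3, a glutamate transporter that astrocytes also express, averaged -1.32 ± 0.63, and the summed astrocyte list was likewise lower in dividing cells of each library, at 192, 79.4, 221 and 114 CPM against 259.5, 227, 368 and 244 CPM in the other gated microglia. The part of astrocyte RNA in the Slc1a3 value was not tested. The remaining genes at this end were P3h2, Gm13710, Cyp4f13, 8030442B05Rik, Mef2d, Fry, Rhobtb1, Tgfa, Pik3r5, Matk, Plxna4 and Fbxl20.

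The same levels were followed over cells binned by their cycle UMIs, which is again a description. The homeostatic list summed to 80446, 84974, 87188 and 91656 CPM in cells with none of the 8 genes. With 3 to 5 UMIs it summed to 67122, 68389.5, 72583 and 68789.6 CPM. Cells with 12 or more gave 61182, 59530.3, 67326 and 67406 CPM. A large part of this sum is a single abundant gene, Cst3. Its level was 29636, 31378, 30548 and 33187 CPM in cells with none, and 20772, 21398, 22357 and 22487 CPM with 12 or more. Hmgb2 stood at 120.2, 105, 105 and 92.3 CPM in cells with none, at 1214, 1626, 1659.8 and 1158 CPM with 3 to 5, and at 3189.6, 2529.9, 2565 and 2576 CPM with 12 or more. Cells with 1 or 2 UMIs, which the rule leaves out, had Hmgb2 at 186, 131, 134 and 101 CPM, next to the cells with none. The bins of 3 to 5 and of 6 to 11 UMIs held as few as 8 cells in Hevin replicate 2.

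**Figure D4:**
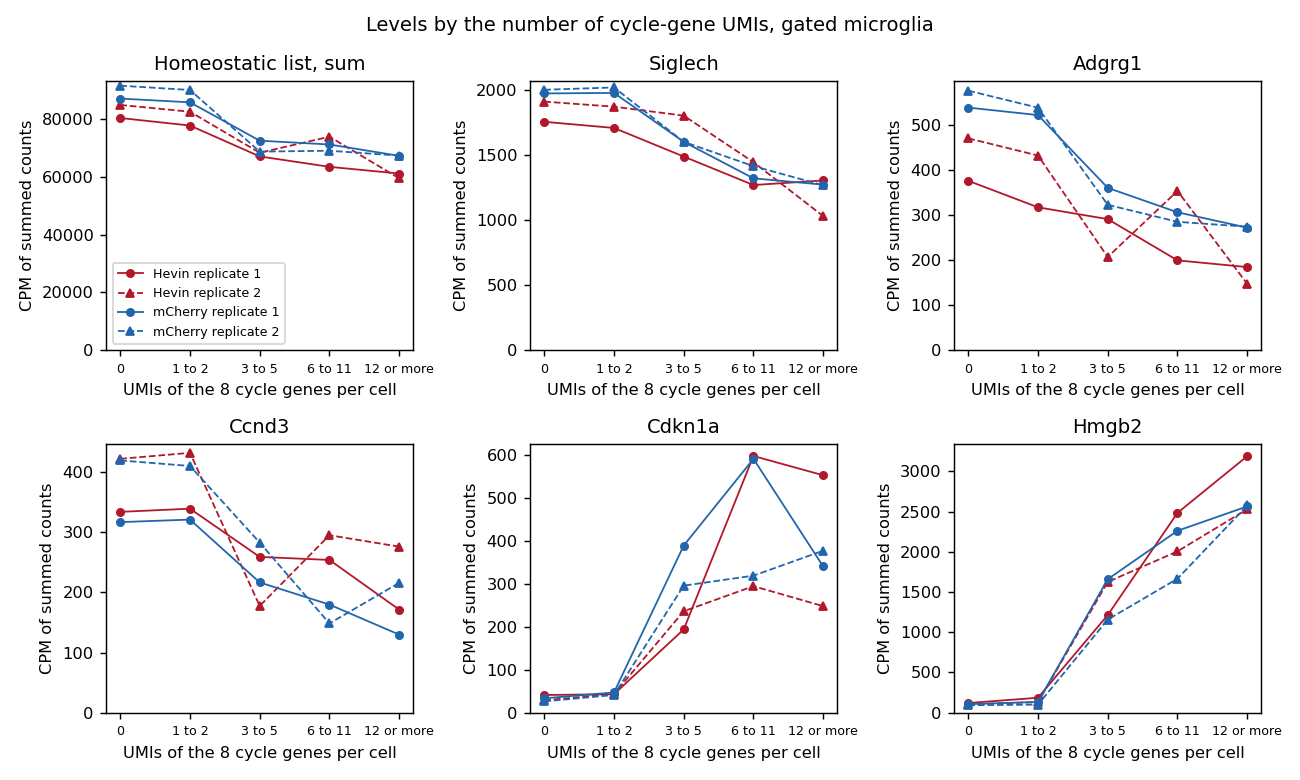
CPM of summed counts (y axes) in gated microglia binned by their UMIs of the 8 cycle genes (x axes), with a line for each library, red for Hevin and blue for mCherry. In cells with 12 or more UMIs, against cells with none, the homeostatic list, Siglech, Adgrg1 and Ccnd3 are lower and Hmgb2 is higher, in each library.

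Hevin against mCherry was tested in the dividing cells on counts summed per library. Few genes passed. Of 5153 genes tested, 5 passed an adjusted p of 0.05 (0.097% of those tested) by edgeR's quasi-likelihood test with Benjamini-Hochberg adjustment. Of these, 3 were higher (0.0582%) and 2 lower (0.0388%) with Hevin. Apoe, which the rule bounds, is among the 3, so 4 of the 5 lie outside the rule. An unadjusted p below 0.05 was found for 301 genes (5.84%). The median log2 fold change over all genes tested was 0.00. Levels in this comparison are CPM scaled by TMM, edgeR's correction for composition. The count moved with the settings: it was 1 with DESeq2 and between 17 and 50 when either group lost a library.

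Apoe, a lipid carrier that the gate bounds at 1%, is described here and no test is read from it, since its level chose the cells. In dividing cells it stood at 4948 and 3009.5 CPM in the Hevin libraries, against 1354 and 1136 CPM in the mCherry libraries. In the other gated microglia, chosen by the same bound, it stood at 4675 and 3258 CPM in the Hevin libraries, against 1500.0 and 1266 CPM in the mCherry libraries. Both Hevin libraries lay above both mCherry libraries in each class. The Hevin libraries also held the many cells over the bound given above, and the part of their RNA in these values was not tested.

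Rplp1, a protein of the ribosomal stalk, rose with Hevin, at 3938 and 4264 CPM in the Hevin libraries, against 2242 and 2814 CPM in the mCherry libraries (log2 fold change 0.70 ± 0.13, edgeR adjusted p = 0.0178). It lost the call with DESeq2 (log2 fold change 0.70) and without mCherry replicate 1 (0.53). Ribosomal protein genes have near-identical pseudogenes that can share reads. Of 88 ribosomal protein genes tested in dividing cells, 1 was called higher and 0 lower, 84 had a log2 fold change above 0, and 52 were higher with Hevin in both libraries than in either mCherry library, against 17.9% of all genes tested. Their median log2 fold change was 0.24 in dividing cells and also 0.24 in the other gated microglia. The ribosomal share of a dividing cell's UMIs had medians of 10.9% and 10.0% in the Hevin libraries and 8.5% and 9.57% in the mCherry libraries.

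Csmd3, a large membrane protein, fell with Hevin. It stood at 65.3 and 113 CPM in the Hevin libraries, against 229 and 236 CPM in the mCherry libraries (log2 fold change -1.39 ± 0.28, edgeR adjusted p = 0.0411). Its UMIs came from many cells: 10 of 61 and 12 of 38 dividing cells had one in the Hevin libraries, against 55 of 114 and 25 of 67 in the mCherry libraries. The call was lost with DESeq2 (log2 fold change -1.38), without Hevin replicate 1 (-1.05) and without the top 5% of doublet scores (-1.39). In the other gated microglia the log2 fold change was -0.96 ± 0.12 (edgeR adjusted p = 0.104).

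Gm11290 is a long noncoding RNA gene at chr13:22014468-22020738 (GENCODE M21, GRCm38, plus strand) beside a cluster of histone genes. Its summed level was higher with Hevin, at 148 and 138 CPM, against 35.2 and 40.4 CPM in the mCherry libraries. The log2 fold change was 1.93 ± 0.34 (edgeR adjusted p = 0.0173). Few cells carried Gm11290. In Hevin replicate 1 its 25 UMIs came from 7 cells, and in Hevin replicate 2, 21 of its 22 UMIs came from a single cell. In the mCherry libraries 18 UMIs came from 12 cells and 14 from 8. The share of dividing cells with a UMI was thus not higher with Hevin. It was 11.5% and 5.26% in the Hevin libraries, against 10.5% and 11.9% in the mCherry libraries. Gm11290 lost the call with DESeq2 (1.94) and without the top 5% of doublet scores (1.77).

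Cd74, the chaperone of MHC class II, was lower with Hevin, at 184 and 113 CPM in the Hevin libraries, against 327 and 643 CPM in the mCherry libraries (log2 fold change -1.67 ± 0.30, edgeR adjusted p = 0.0173). Most of its mCherry counts came from the cells with MHC class II RNA: a single cell held 96 of 167 UMIs in mCherry replicate 1, and another 150 of 223 in mCherry replicate 2. Without the cells that carry RNA of another type, its log2 fold change was -0.24 and it was no longer called (edgeR adjusted p = 0.979), nor was it with DESeq2 (-1.69). H2-Ab1, an MHC class II chain that was not called, had a log2 fold change of -1.25 ± 0.35 with those cells and of 0.88 without them.

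No other gene passed the threshold with all cells. Of the genes next in order of p, Pip4k2b, a phosphoinositide kinase, stood at 564 and 495 CPM in the Hevin libraries, against 319 and 239 CPM in the mCherry libraries (log2 fold change 0.91 ± 0.19, edgeR adjusted p = 0.0603), with no overlap between groups. Without the 4 cells of mixed RNA it was called (0.97, edgeR adjusted p = 0.00789), as was Lyz2, the lysozyme of macrophages (1.22, edgeR adjusted p = 0.000328). A single cell held 121 of the 190 Lyz2 UMIs of mCherry replicate 2. Ccl12, a chemokine, stood at 517 and 451 CPM in the Hevin libraries, against 241 and 323 CPM in the mCherry libraries (log2 fold change 0.80 ± 0.19, edgeR adjusted p = 0.212). Gpr65, a proton-sensing receptor, stood at 71.3 and 87.8 CPM in the Hevin libraries, against 11.7 and 26 CPM in the mCherry libraries (2.14 ± 0.53, edgeR adjusted p = 0.222), from 11 and 10 cells with Hevin and 4 and 8 with mCherry.

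On the lower side, Med12l, Nav2, Ccl6, Nav3, Vgll4, Csnk1e, H2-Ab1 and Ttk followed, with log2 fold changes between -1.83 and -0.84 and edgeR adjusted p between 0.144 and 0.533. Med12l (chr3:59005825-59318682, plus strand) spans P2ry12 (chr3:59216272-59262871, minus), which the gate bounds. The use of strand in counting is not stated, and the part of P2ry12 reads in the Med12l values was not tested. Ttk, the kinase of the spindle checkpoint, stood at 23.8 and 12.5 CPM in the Hevin libraries, against 72.4 and 57.7 CPM in the mCherry libraries, from 4 and 2 UMIs with Hevin and 37 and 20 with mCherry. Nav3 stood at 125 and 251 CPM in the Hevin libraries, against 385 and 326 CPM in the mCherry libraries, with the groups apart. On the higher side, Gm47283, Rpl27a, Tmsb4x, Lsp1 and mt-Nd5 completed the list, with log2 fold changes between 0.27 and 0.97. Gm47283 is placed on chromosome Y, but its order over the libraries was not that of Ddx3y, also on Y. It stood at 558 and 721 CPM in the Hevin libraries, against 280 and 479 CPM in the mCherry libraries. Ddx3y stood at 156 and 11.3 plain CPM in the Hevin libraries and 70.0 and 39.0 in the mCherry libraries. The source of the Gm47283 difference was not tested.

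**Figure D5:**
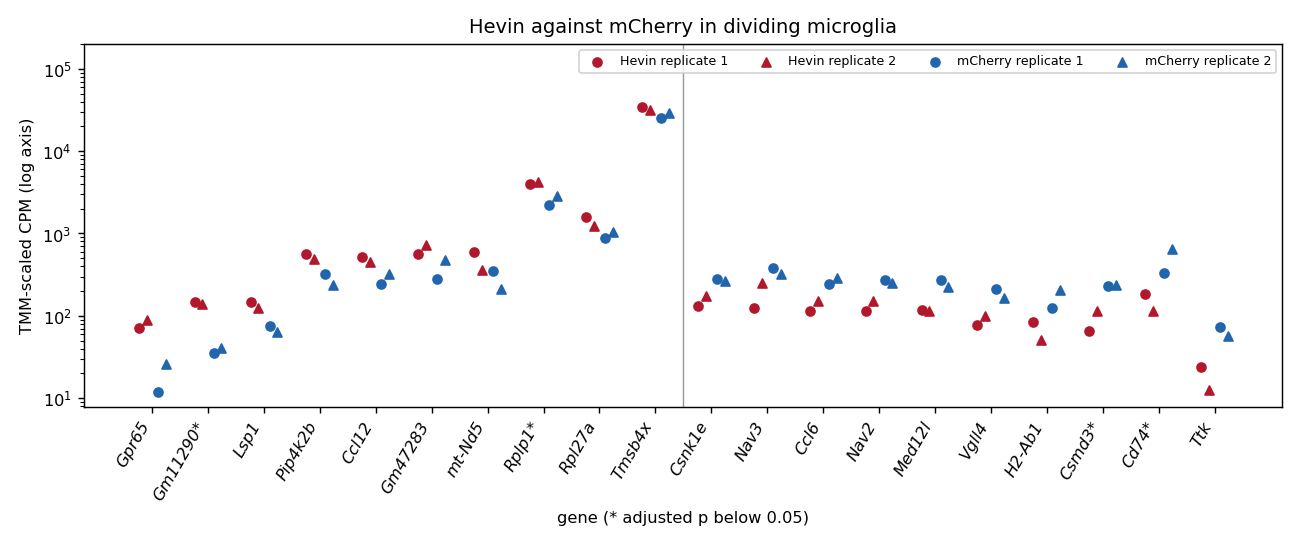
TMM-scaled CPM (log axis) in dividing cells of each library for 20 genes outside the rule, higher with Hevin on the left and lower on the right, red for Hevin and blue for mCherry. The groups do not overlap for any of the 20, which were chosen by p and group order, and stars mark the 4 past an adjusted p of 0.05.

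The 8 cycle genes of the rule chose the cells, so their levels by group are also a description. Their log2 differences between Hevin and mCherry lay between -0.17 and 0.43. Pclaf, a PCNA-binding protein, was at the upper end, with 392 and 539 CPM in the Hevin libraries, against 333 and 358 CPM in the mCherry libraries. Mki67 stood at 398 and 307 CPM in the Hevin libraries, against 409 and 386 CPM in the mCherry libraries. For Mki67, mCherry replicate 2 lay within the Hevin range and mCherry replicate 1 just above it.

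By role, none of the replication, nucleotide synthesis, mitotic, spindle, kinetochore, chromosome or inhibitor lists had a called gene, which with 0.097% of all genes called says nothing particular of lists this short. Median log2 fold changes were 0.02 for 19 replication genes, -0.18 for 16 mitotic kinases and cyclins, 0.01 for 23 spindle genes and 0.06 for 13 kinetochore genes, beside 0.00 over all genes. Mcm2, a subunit of the replicative helicase, had the largest of these in the upper direction (log2 fold change 1.25 ± 0.44, edgeR adjusted p = 0.786). Of the spindle genes, 5 were higher and 5 were lower with groups apart, against 17.9% and 18.1% of all genes tested.

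Of 23 homeostatic microglia genes tested in dividing cells, 0 were called, a count that 0.097% over all genes would also give. Their median log2 fold change was -0.11, 18 were below 0, and 11 were lower with groups apart, against 18.1% of all genes tested. Sall1 had -0.41 ± 0.21 (edgeR adjusted p = 0.879) and Adgrg1 had -0.41 ± 0.20 (edgeR adjusted p = 0.861). In the other gated microglia the median of the list was -0.14, and both classes come from the same libraries. Ms4a7, a marker of macrophages outside the parenchyma, had 1.94 ± 0.65 in dividing cells (edgeR adjusted p = 0.742).

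The other gated microglia had far more counts behind them and gave no calls in the same fit. Of 16991 genes tested, 0 passed (0% of those tested; edgeR), 958 (5.64%) had an unadjusted p below 0.05, and DESeq2 called 136. Whether the Hevin effect differed between dividing and other gated microglia was tested in a joint fit of both classes, blocked by library. Of 14553 genes, 9 passed (0.0618%), with the effect higher in dividing cells for 2 (0.0137%) and lower for 7 (0.0481%), and 491 (3.37%) had an unadjusted p below 0.05. Without the cells that carry RNA of another type, 3 did: Acad12, Gm11290 and Kazn. All 19 Acad12 UMIs of Hevin replicate 2 came from a single cell. For Gm11290, a single cell held 21 of the 22 UMIs of that library. Kazn, a protein of cell junctions, had a difference of -0.90 ± 0.20 (edgeR adjusted p = 0.0121), with plain CPM of 166 and 385 in dividing cells of the Hevin libraries and 374 and 502 in those of the mCherry libraries, so Hevin replicate 2 lay within the mCherry range.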

How the data were processed

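Each of the 4 libraries came as a matrix of UMI counts for 32227 genes, deposited by the authors without normalization. The submitters' processing notes name mm10 as the build. Not given in the sources used here are the aligner, the counter and its use of strand, the annotation and how cells were called. Libraries were grouped by their labels, 2 per group. Barcodes were kept with at least 500 UMIs and at most 10% mitochondrial UMIs (315 were removed), and the rule of the report was then applied. Scrublet (scanpy 1.11.5) called 1.45% and 2.11% of barcodes in the Hevin libraries and 0.0112% and 0.0184% in the mCherry libraries. The mCherry calls were too few to have worked, and no doublets were removed. An alternative dropped the top 5% of scores of each library. It took 8.20% and 13.2% of dividing cells in the Hevin libraries, against 1.75% and 1.49% in the mCherry libraries. Of other gated microglia it took 2.32% and 3.80% with Hevin and 5.13% and 5.86% with mCherry. The part of doublets in the differences between groups was not tested.

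Counts were summed per library over dividing and over other gated cells and tested with edgeR 4.0.16 (filterByExpr, TMM, quasi-likelihood, group as the sole term), with DESeq2 1.42.0 as an alternative. The dividing sums held 192810 and 176419 UMIs with Hevin and 556841 and 384304 with mCherry. The fits were checked on simulated data with 200 changed genes, and recovered 32.5% of 2-fold and 81.5% of 4-fold changes in the dividing cells. For the difference of the effect between classes, 11.0% of 2-fold and 79.0% of 4-fold changes were recovered, and 8.33% and 1.86% of the calls were false. The simulated counts had the same spread between libraries for every gene in both classes. They held no single cell with most of a gene's UMIs. The false shares are thus no estimate for the calls made here. Recovery in genes of few UMIs was not tested on its own, so these shares may not hold for all genes tested. Between replicates, the other gated sums had a chi-square per gene of 9.76 with Hevin and 17.2 with mCherry. This value grows with counts, and those sums held 14991558 and 20438606 UMIs with Hevin and 52987812 and 39435931 with mCherry. It therefore does not show whether replicates differed more, for their counts, than in the dividing sums. Recovery at the spread of the other gated sums was not tested. Cells were set aside as carrying other RNA at 10 UMIs or more of a marker list of another cell type (border macrophages aside), or 100 or more of MHC class II genes and Cd74. Shares were compared by an exact permutation test over libraries. Wilson intervals (95%) cover counting error only.

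Between groups, up to 10 genes per direction were named, outside the rule, with a mean of at least 10 CPM: those past an adjusted p of 0.05 with groups apart, by fold change, then by smallest p. Between classes, 15 per direction were named among genes of at least 50 CPM in every library. The labels name no pairing of libraries by replicate number. In the dividing sums the deviations of same-numbered libraries had a correlation of 0.04 over 5153 genes, a value that sampling noise can lower. Pairing was not examined in this way in the other gated microglia. Between replicates of a group the dividing sums differed beyond sampling noise (chi-square per gene 1.49 with Hevin and 2.41 with mCherry). The mCherry value includes the cell with neutrophil RNA, with S100a8 at 7 and 1579 UMIs in mCherry replicates 1 and 2. The part of that cell in the value was not computed. The cells, gene lists and tests were chosen with earlier results of these data known. Promoter windows and gene positions came from RefSeq (GRCm38.p6) and GENCODE M21; 4163 genes had several starts, of which the first listed was used.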

Additional observations from a re-analysis of the deposited data

Results flagged for a closer look

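The difference of the Hevin effect between dividing and other gated microglia passed the threshold for 9 genes, which are given here because the same contrast differed between the cell classes. Differences are log2, dividing minus other, by edgeR. For S100a9, S100a8, Camp and Ngp, granule and calcium-binding proteins of neutrophils, they were -5.67, -4.27, -15.69 and -13.38. Nearly all of these counts lay in a single cell of mCherry replicate 2, which held 1569 of 1571 S100a9 UMIs, 1576 of 1579 S100a8 UMIs and every UMI of the 783 Camp and 374 Ngp. Camp and Ngp had 0 UMIs in the dividing cells of both Hevin libraries, so their fitted values are no measure of size.

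Cd74 and H2-Ab1, both of MHC class II presentation, had differences of -2.05 and -1.64, and without the cells that carry RNA of another type -0.83 and 0.29, neither called. Acad12, an acyl-CoA dehydrogenase, had 5.66, all from a single cell of Hevin replicate 2. Gm11290 had 1.89 and, without the cells that carry RNA of another type, 2.06 (edgeR adjusted p = 0.00579). The dividing cells left out there were all in the mCherry libraries. The Hevin cell with 21 of the 22 Gm11290 UMIs of Hevin replicate 2 stayed in. Kazn had -0.90 and, without the cells that carry RNA of another type, -0.89 (edgeR adjusted p = 0.00833).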

How the results depend on the processing

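In dividing cells the count of called genes was 5, against 1 with DESeq2, 10 with scaling by total counts, 43 with no filter on low counts, 9 and 14 with the cycle bound at 5 UMIs or at 0.1% of UMIs, 26 with no bound on Apoe, 3 without the top 5% of doublet scores, and between 17 and 50 without 1 library (30 and 50 without Hevin replicates 1 and 2, 33 and 17 without mCherry replicates 1 and 2); a lone library is then assumed to vary like the other group. In other gated microglia the count was 0, against 136 with DESeq2, 344 with no filter, 361 with no bound on Apoe, 1 with at least 3000 UMIs per cell and between 4 and 106 without 1 library. For the difference of the effect it was 9, against 1 with DESeq2, 5 with the bound at 0.1%, 16 with no bound on Apoe, 3 without cells that carry markers of another type, and between 2 and 18 without 1 library. With replicate number as a block, 6 genes were called in dividing cells, 11 for the difference and 520 in other gated microglia. The correlation of same-numbered libraries was computed only in the dividing sums. With the replicate numbers crossed, 2 genes were called in dividing cells. The Hevin minus mCherry difference in dividing share was 0.0629 percentage points, and turned to -0.00359 with the bound at 5 UMIs and -0.0270 without the top doublet scores (range without 1 library -0.0721 to 0.198). The cycle CPM difference was 11.5 (range -2.20 to 25.2), and that of the S-leading share -0.922 (range -6.24 to 4.40). Of the 20 named genes, only H2-Ab1 changed sign, to 0.88 without cells of mixed RNA. The cause of these shifts was not tested. The settings for mixed RNA, the thinned phase shares and the cell sets and block in other gated microglia, and the crossed numbers, were added after seeing the data. With 61, 38, 114 and 67 cells, genes of few UMIs rest on few cells.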
